A study of Homo sapiens with 7 samples.

Results

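The genes described here are the translation initiation and elongation factors, taken as all genes whose symbol starts with EIF and a digit from 1 to 6, or with EEF and 1 or 2. Of the 21305 genes in the deposited table, 111 had such a symbol. Set aside were 5 names that start with EIF2AK (the eIF2 kinases and the transcript EIF2AK3-DT) and 1 antisense name. Also set aside were 42 names that end in P and digits, the usual form of a pseudogene name, which left 63 genes. The rule reads names alone, so it also kept a pair of long non-coding transcripts, EIF3J-DT and EIF5-DT, and dropped EIF4EBP1 and EIF4EBP2, which are true genes and are given below among the regulators.

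RNA-seq was performed on 501Mel, a human melanoma cell line, carrying a short hairpin RNA (shRNA) that doxycycline switches on and that the cell turns into a small RNA lowering a matching transcript. The shlacZ hairpin, directed against a bacterial gene, was the control (n = 3), and the hairpins sh4 (n = 2) and sh8 (n = 2) were directed against the long non-coding RNA GRASLND. All 3 groups, the control included, were induced with doxycycline, and according to the methods of the study the lines were pools of lentivirally transduced cells that had been selected with puromycin. The labels do not say whether the libraries of a group came from separate cultures, so the p-values measure only the spread between these samples, which may be technical.

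The recovered depth, which counts only the reads assigned to genes of the deposited table, was between 13337317 and 22855232 reads per library. GRASLND itself had normalized counts of 309, 329.9 and 289.7 in the control, 175 and 131 under sh4 and 227 and 163 under sh8, and the knockdown libraries together lay below the control by a log2 fold change of -0.85 (SE 0.19, adjusted p = 0.0402), in limma with Benjamini-Hochberg adjustment (two-sided exact permutation p = 0.0571). That call was lost on leaving out any library except the first sh8 library, with an adjusted p of 0.0636 to 0.182, without the variance trend (0.0805) and with the replicate number as a block (0.150). All 7 melanocytic markers looked for were present, with summed normalized counts of 135575 to 146343 in the shlacZ libraries, 51868 to 59737 under sh4 and 101544 to 104484 under sh8. The sum was thus lower with each hairpin than in every control, while the markers were not compared one by one. The part of the markers in the results on the translation factors was not tested. Of 7 markers of blood, endothelial, keratinocyte and fibroblast cells only COL1A1 was in the table, at 5.24 to 16.4. The first shlacZ library stood apart in the genes described here, being the lowest control for 53 of the 60 tested (88.3%) against 6906 of 15420 genes (44.8%), with a median log2 difference from the other controls of -0.30 against -0.03 over all genes. Where leaving out 1 library moves a count of calls, the count without it is therefore given beside it.

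Translation begins when eIF2 with GTP brings the initiator tRNA to the small ribosomal subunit, helped by eIF1, eIF1A, eIF3 and eIF5, while the eIF4F complex binds the cap of the mRNA. In eIF4F, eIF4E holds the cap, eIF4A unwinds the leader and eIF4G is the scaffold that joins them to eIF3 and to the poly(A) binding protein. During elongation, eEF1A delivers each aminoacyl-tRNA, the eEF1B subunits recharge eEF1A with GTP, eEF2 moves the ribosome along, and eIF5A helps at stalled or slow peptide bonds. Many of these mRNAs carry a 5′ terminal oligopyrimidine (TOP) start, a run of C and T letters through which the kinase mTOR sets how well they are translated.

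Levels in the control were compared between genes as normalized counts per kb of the canonical transcript. EEF1A1, the main form of eEF1A, was highest at 46457 (38605 to 50765) (mean and range over the 3 shlacZ libraries), followed by EEF2 at 12589 (10889 to 13737), the eEF1B subunit gene EEF1G at 8174 (6667 to 9049), and the helicase genes EIF4A1 at 7381 (5794 to 8620.0) and EIF4A2 at 6324 (5844 to 6749). The ranges of EEF1G, EIF4A1 and EIF4A2 overlapped, so their order was not resolved beyond the spread, whereas EEF1A1 and EEF2 stood clear of all others. Next in order were EIF4G2 (4338 to 6339) and EIF5A (4060 to 6463), whose ranges overlapped those of EIF4A1 and EIF4A2. The places of EIF4A1 and EIF4A2 above them were therefore not resolved either. EEF1A1 alone made up 0.720 to 1.03% of the normalized counts of a library and ranked from 7 to 11 among all genes. All 63 genes together made up 2.15, 2.52 and 2.46% in the shlacZ libraries, 1.88 and 2.05% under sh4 and 2.14 and 2.38% under sh8, so that both sh4 libraries lay below every control while sh8 overlapped the control. At the other end were the muscle and neuron form of eEF1A, EEF1A2, at 2.51 normalized counts per kb, the cap-binding paralog EIF4E3 at 1.03 and the copies EIF2S3B and EIF5AL1.

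**Figure D1:**
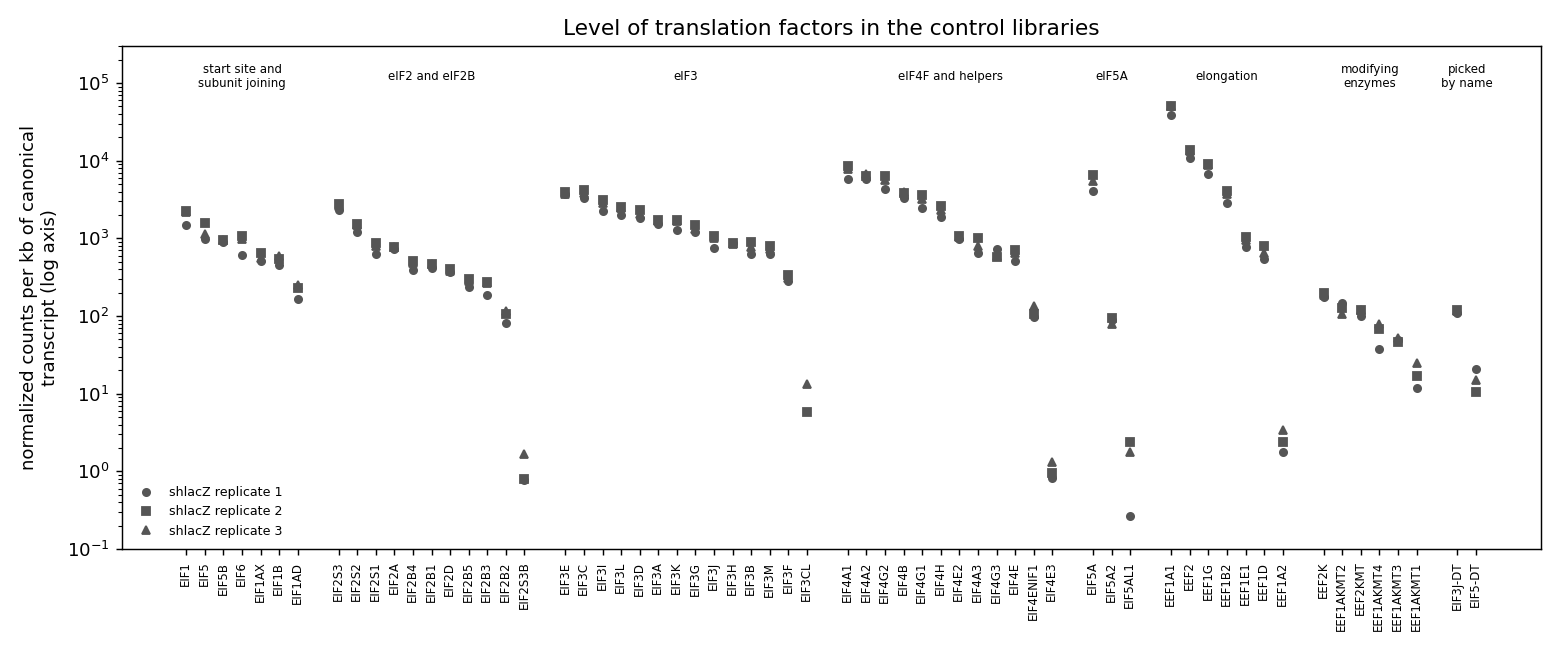
Level of each translation factor in the 3 shlacZ libraries as normalized counts per kb of canonical transcript on a log axis, grouped by role and ordered by mean, with 1 symbol shape per library. EEF1A1 stands highest at 38605 to 50765 and EIF4E3, EEF1A2, EIF2S3B and EIF5AL1 are at a few counts per kb or below. The Y-linked EIF1AY and the value of 0 for EIF3CL in the first library are not drawn.

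Under the hairpin sh4 many of these mRNAs were lower than in the control, whereas under sh8 a single one passed the test. Of the 60 genes that reached a mean of 10 normalized counts, 18 passed the test in sh4 against control, 17 lower and 1 higher. These are 30% of those tested against 22.5% of all genes, and for lower calls 28.3% against 11.9%, while 10.5% of all genes were called higher. In sh8 only EIF4A3 passed, lower (1.7% against 2.92% of all genes, and 1.54% for lower calls). With both hairpins pooled (n = 4), 4 genes passed (6.7% against 4.61%), of which EIF4A3, EEF1E1 and EIF5A2 were lower (5.0% against 2.06%) and EIF4G3 was higher (2.55% of all genes were). The direct comparison of sh4 with sh8 called EIF2S3, lower in sh4 (1.7% against 7.0% of all genes, and 3.33% for lower calls). A gene was called at an adjusted p under 0.05 in limma on log2(normalized count + 1), fitted over 15420 genes, and fold changes are on that scale. In this bulk RNA, fewer cells with a transcript and less of it in each cell cannot be told apart.

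Most of the differences were small. None of the 60 genes passed the added limit of the study, an absolute log2 fold change over 1, in any of the 4 comparisons by limma, whereas 16, 26, 8 and 11 had an unadjusted p under 0.05 in the pooled, sh4, sh8 and sh4 against sh8 comparisons. Limma-voom on recovered reads also put 0 genes past that limit in the pooled, sh4 and sh8 comparisons and put 1, EIF4E3, past it in sh4 against sh8. All genes passed it in 1.99, 8.16, 1.15 and 3.19% of cases. Log2 fold changes were negative for 51 of 60 genes (85.0%) in the pooled comparison, 50 (83.3%) in sh4 and 50 (83.3%) in sh8, where over all genes tested the shares were 50.6, 50.6 and 51.2%. The median was -0.23, -0.33 and -0.15 in the same order, against -0.01 over all genes in each. The comparisons of sh4 and sh8 share their control libraries, and the low first control lies on the side of the knockdown.

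Scaling moved these medians without turning them. With quantile normalization the median was -0.14 in the pooled comparison, -0.18 in sh4 and -0.10 in sh8, and with every library scaled to the same total it was -0.17, -0.23 and -0.13. In sh4, EEF2, EIF3E and EIF4A2 lost their call with quantile normalization and EEF2K, EIF5A2 and EIF2S2 with equal totals. The number of calls depended on single libraries. In sh4 against control 30 genes were called without the first shlacZ library, 5 without the second, 9 without the third, 2 without the first sh4 library, 7 without the second and 16 without either sh8 library. The pooled comparison had 6 calls without the first shlacZ library, 0 without the second or the third, 0 without the first sh4 library, 1 without the second, 5 without the first sh8 library and 2 without the second. In sh8 against control 9 genes were called without the first shlacZ library and 0 without any other. Without the first sh4 library, EIF2S3 and EIF4G3 were the 2 sh4 calls. A library left alone in its group is there assumed to vary like the other groups.

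**Figure D2:**
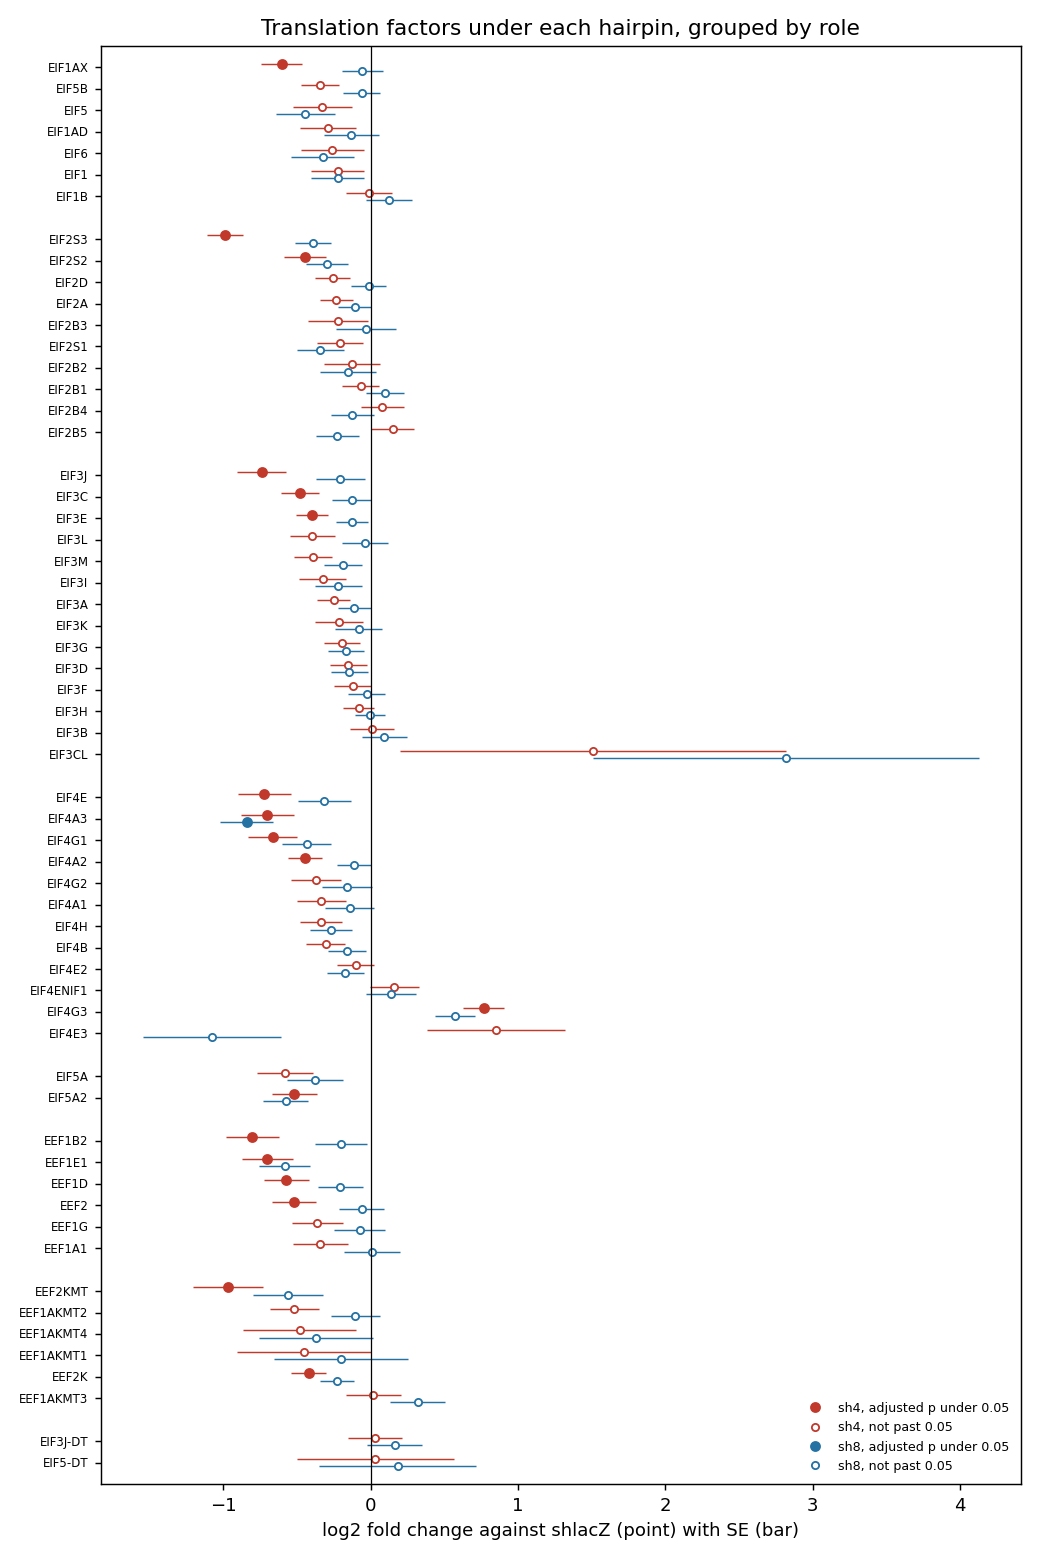
Log2 fold change against shlacZ, with its SE as a bar, for the tested translation factors under sh4 (red) and sh8 (blue), grouped by role from start site factors at the top to the non-coding transcripts at the bottom. Filled points passed an adjusted p of 0.05 in limma. Most points lie left of 0, EIF4G3 is the only filled point to the right, and EIF3CL and EIF4E3 have long bars at low counts. EIF1AY is not drawn.

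Without a model, the libraries can be set side by side. All 4 knockdown libraries lay below all 3 controls for 10 of the 60 genes (11% of all genes tested did so) and above them for 1, EIF4G3 (10.2%). For sh4 alone, 29 genes had both libraries below every control (25.6% of all genes) and 2 had both above (25.1%). For sh8 alone, 14 lay below (17.9%) and 4 above (16.5%), and both sh4 libraries were under both sh8 libraries for 25 genes (27.6%) and over them for 5 (26.6%). The 10 genes below in every knockdown library were EIF2S2, EIF2S3, EIF3E, EIF3G, EIF4A3, EIF4G1, EIF5A2, EEF1E1, EEF2K and EEF2KMT.

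**Figure D3:**
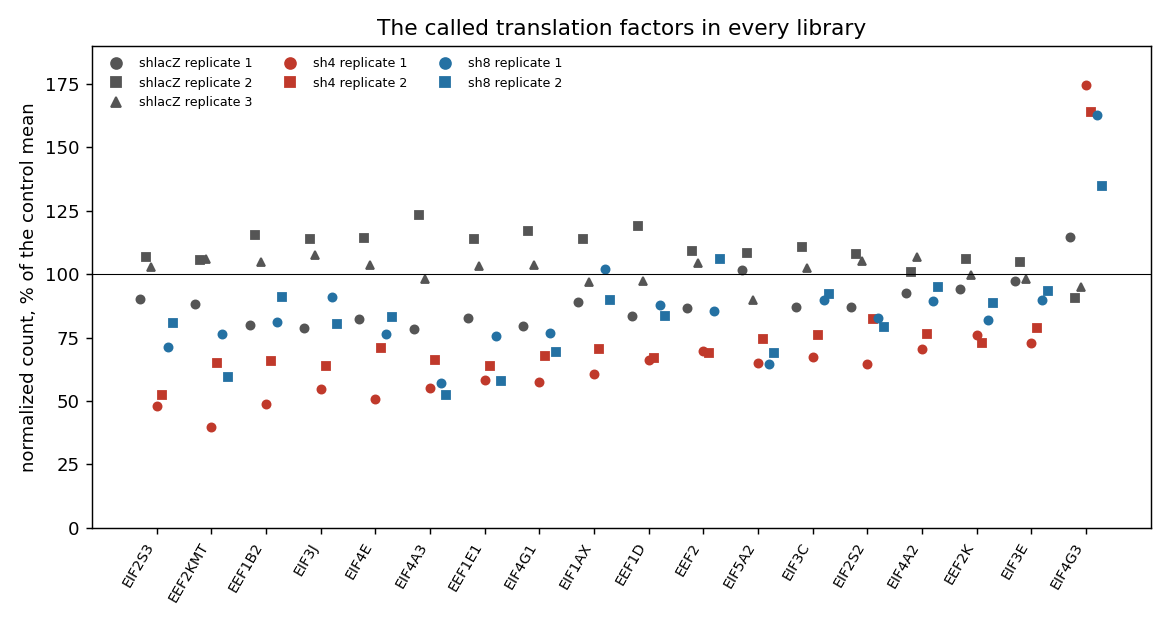
Normalized count in each of the 7 libraries, as percent of the mean of the shlacZ libraries, for the 18 translation factors called in any comparison, ordered by their fold change in sh4. The sh4 libraries (red) lie below all controls for 17 of these genes, EIF2S3 being near 50% of the control, and all knockdown libraries lie above all controls for EIF4G3. The genes were picked by tests on these same libraries, which favours such separation. The first shlacZ library (grey circle) is often the lowest control.

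The cap-binding complex eIF4F and its helpers gave calls in both directions in sh4. Of 12 genes grouped here by name, 4 were lower (33.3% against 11.9% of all genes) and 1 was higher (8.3% against 10.5%), and without EIF4A3, which works in another complex, 3 of 11 were lower. Lower calls of the 12 numbered 8 without the first control, 0 without the second control or the first sh4 library, 2 without the third control and 1 without the second sh4 library, while the higher call was made in each. EIF4G3, the gene of the scaffold form eIF4GII (ENSG00000075151, chromosome 1, 20806292 to 21177285 on the minus strand of hg38 in GENCODE release 44), had normalized counts of 4629.9, 3671 and 3833 in the control, 7057 and 6637 under sh4 and 6579 and 5446 under sh8. All 4 knockdown libraries were higher than all 3 controls. Its log2 fold change was 0.77 (SE 0.14, adjusted p = 0.00388) in sh4, 0.57 (SE 0.14, adjusted p = 0.0567) in sh8 and 0.67 (SE 0.13, adjusted p = 0.0271) with both pooled, and sh4 did not differ from sh8 beyond the spread, at 0.19 (SE 0.15, adjusted p = 0.503). The sh4 call was kept in all 15 alternatives. The pooled call had an adjusted p of 0.145 without the second shlacZ library, 0.120 without the third, 0.0776 without the first sh4 library and 0.0580 without the second.

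EIF4G1, the gene of the main scaffold eIF4GI (chromosome 3, 184314495 to 184335358), went the other way. Its normalized counts were 13420.0, 19794 and 17507 in the control, 9689.8 and 11433 under sh4 and 13003 and 11729 under sh8. Every knockdown library was below every control, though the first control and the first sh8 library were close. The change on the log2 scale was -0.67 (SE 0.17, adjusted p = 0.0187) in sh4, -0.43 (SE 0.17, adjusted p = 0.203) in sh8 and -0.55 (SE 0.16, adjusted p = 0.0787) when pooled. The mean of both hairpins in the fit with 3 groups, at the same fold change, passed (SE 0.14, adjusted p = 0.0255), and the pooled comparison passed without the first control (0.0434). The sh4 call was lost on leaving out the second shlacZ library, the third or either sh4 library, where the adjusted p was 0.0631, 0.0545, 0.160 and 0.0599. The third scaffold-like gene, EIF4G2, which lacks the eIF4E binding site and works in cap-independent initiation, had 16459, 24051 and 21357 in the control, 14359 and 17241 under sh4 and 19407 and 17112 under sh8, and passed no test.

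The ratio of EIF4G1 to EIF4G3 within a library does not depend on the size factor. It was 2.90, 5.39 and 4.57 in the control, 1.37 and 1.72 under sh4 and 1.98 and 2.15 under sh8. All knockdown ratios were under all control ratios. The mean log2 ratio in knockdown minus that in control was -1.22 (SD 0.46 in control, n = 3, and 0.28 in knockdown, n = 4), with a two-sided exact permutation p of 0.0286, the smallest that the 35 splits of 7 libraries allow, and 0.114 after Benjamini-Hochberg adjustment over the 8 paralog pairs compared.

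**Figure D4:**
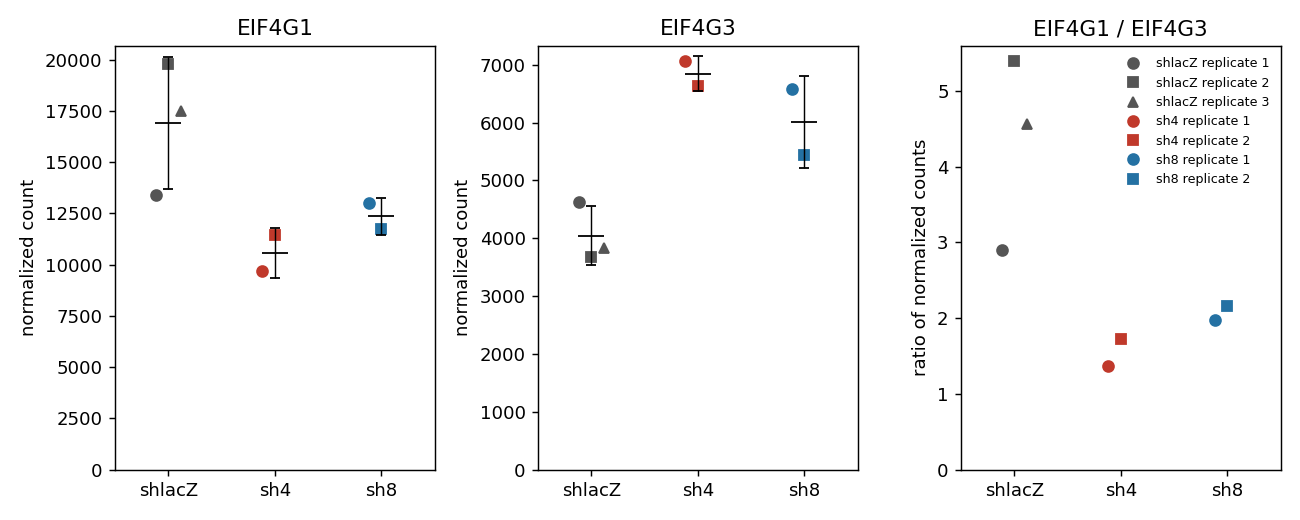
Normalized counts of EIF4G1 (left) and EIF4G3 (middle) and their ratio (right) in each library, by hairpin, with the group mean and SD as a black bar in the first pair of panels (n = 3 for shlacZ, 2 for sh4 and 2 for sh8). EIF4G1 is lower and EIF4G3 higher in all knockdown libraries, and the ratio drops from between 2.90 and 5.39 in the control to between 1.37 and 2.15.

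EIF4A3 (chromosome 17, 80134369 to 80147151) codes for a helicase that is related to eIF4A but sits in the exon junction complex, where it marks spliced mRNA. It was the one gene that passed in both hairpins. The normalized counts were 1614, 2539 and 2014 in the control, 1135 and 1359 under sh4 and 1177 and 1078 under sh8, and no knockdown library reached a control. The log2 fold change was -0.70 (SE 0.18, adjusted p = 0.0206) in sh4, -0.84 (SE 0.18, adjusted p = 0.0382) in sh8 and -0.77 (SE 0.16, adjusted p = 0.0299) pooled. In sh8 the call rested on each library other than the first control, with an adjusted p of 0.0963 and 0.0904 without the second and the third shlacZ library, 0.0648 and 0.0654 without the first and second sh4 library, and 0.158 and 0.261 without the first and second sh8 library. The pooled call was lost on leaving out the second shlacZ library, the third, the first sh4 library or the second sh8 library, at 0.144, 0.112, 0.0830 and 0.0534, and the sh4 call without the second shlacZ library or either sh4 library, at 0.0565, 0.169 and 0.0621.

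The translation helicases gave 1 call. EIF4A1, the main eIF4A, had 10187, 15154 and 13585 in the control, 9515 and 10799 under sh4 and 11051 and 12168 under sh8, and no comparison passed. EIF4A2, its close paralog, had 11023, 12031 and 12729 in the control, 8387 and 9104 under sh4 and 10678 and 11331 under sh8. Its sh4 libraries were below all controls, and the log2 fold change was -0.45 (SE 0.12, adjusted p = 0.0208) in sh4 and -0.11 (SE 0.12, adjusted p = 0.643) in sh8. The ratio of EIF4A1 to EIF4A3 was 6.31, 5.97 and 6.75 in the control, 8.38 and 7.95 under sh4 and 9.39 and 11.3 under sh8, higher in all knockdown libraries (two-sided exact permutation p = 0.0286, adjusted 0.114), while that of EIF4A1 to EIF4A2 overlapped fully (exact permutation p = 0.743).

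Among the cap-binding proteins, EIF4E, the limiting cap receptor and an oncogene in many tissues, had normalized counts of 1243, 1727 and 1564 in the control, 767 and 1072 under sh4 and 1155 and 1255 under sh8. Both sh4 libraries were under every control, while the second sh8 library lay above the first control. Against the control this was a log2 fold change of -0.72 (SE 0.18, adjusted p = 0.0176) in sh4 and -0.31 (SE 0.18, adjusted p = 0.390) in sh8. EIF4E2, a repressive cap binder, had 945, 1026 and 1005 in the control, 853 and 1002 under sh4 and 862 and 898 under sh8, and passed no test. EIF4E3 was scarce, with 8.26, 9.43 and 13.0 in the control, 19.2 and 18.7 under sh4 and 3.95 and 4.55 under sh8. Its sh4 values were above and its sh8 values below all controls, with a log2 difference between the hairpins of 1.93 (SE 0.51, adjusted p = 0.0521), and no library held more than 25 reads of it. The helper genes EIF4B and EIF4H, which stimulate eIF4A, and EIF4ENIF1, which carries eIF4E into the nucleus, passed no test. Their log2 fold changes in sh4 were -0.31, -0.34 and 0.16.

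The promoter windows of RefSeq (GRCh38.p14, from 250 bases before to 50 after the start) were searched for the E-box CACGTG, a palindrome that reads the same on both strands and that is bound by MITF and MYC among others. Windows were matched for 51 of the 63 symbols, 69 windows in all. The E-box was in 12 of them (17.4%), each of a different gene, against 7.3% of all 35116 windows. Of the 18 called genes 14 had a window, and 5 of the 14 held it, while EEF1B2, EEF1E1, EEF2, EIF1AX, EIF2S3, EIF3C, EIF3J, EIF4A2 and EIF4G3 did not. Of the 37 genes with a window that were not called, 7 held it. Among these 37 were EIF2S3B and EIF5AL1, which were not tested, and the non-coding EIF3J-DT and EIF5-DT, all without the E-box. The windows of EIF4G1, EIF4E, EIF4A3 and EIF5A2 are shown because these genes were lower under sh4, and were taken from the eIF4F and eIF5A groups after their values were seen. Each line gives 30 bases around the first E-box, in capitals, 5′ to 3′ on the strand of the gene.
EIF4G1 (chr3:184314450-184314479, plus strand): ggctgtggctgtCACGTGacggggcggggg
EIF4E (chr4:98929341-98929370, minus strand): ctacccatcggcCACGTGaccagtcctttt
EIF4A3 (chr17:80147232-80147261, minus strand): ccagttccctttCACGTGacgaagagtgcc
EIF5A2 (chr3:170908807-170908836, minus strand): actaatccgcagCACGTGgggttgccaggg
A match is a description of the letters and not a bound site. Of the 12 genes with an E-box, 5 were called in some comparison (these 4 and EEF2K) and 7 were not (EIF1B, EIF2B3, EIF3F, EIF3K, EIF4B, EIF4H and EEF1AKMT4).

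Among the genes of eIF2, which carries the initiator tRNA, the gamma subunit gene EIF2S3 (ENSG00000130741, chromosome X, 24054946 to 24078810) had the deepest fall under sh4. Its normalized counts were 7998, 9468 and 9106 in the control, 4263 and 4630.3 under sh4 and 6311 and 7155 under sh8. The 3 groups did not overlap, with sh8 between sh4 and the control. Relative to the control mean, sh4 was at 50.2% and sh8 at 76.0%. The change on the log2 scale was -0.99 (SE 0.12, adjusted p = 0.000591) in sh4, -0.39 (SE 0.12, adjusted p = 0.119) in sh8 and -0.69 (SE 0.18, adjusted p = 0.0604) pooled (adjusted p = 0.00234 for the mean of both hairpins in the fit with 3 groups, and 0.0458 and 0.0363 pooled without the first and the second sh8 library), and the direct difference between hairpins was -0.60 (SE 0.13, adjusted p = 0.0265). The sh4 call was kept in all 15 alternatives, with adjusted p from 0.000177 to 0.0101. The difference between hairpins had an adjusted p of 0.146 and 0.118 without the first and second sh4 library and of 0.0926 and 0.169 without the first and second sh8 library.

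Of the other eIF2 subunits, 1 was called, lower in sh4, where 22.5% of all genes were called and 11.9% were called lower. EIF2S1, the alpha subunit that is phosphorylated in the stress response, had 2645, 3631 and 3348 in the control, 2455 and 3082 under sh4 and 2640.2 and 2387 under sh8, and passed no test. EIF2S2, the beta subunit gene, named after its values were seen because it was the remaining call of sh4, had 3111, 3852 and 3754 in the control, 2309.5 and 2947 under sh4 and 2949 and 2831 under sh8. All knockdown libraries were below all controls, and the log2 fold change was -0.45 (SE 0.14, adjusted p = 0.0483) in sh4 and -0.30 (SE 0.14, adjusted p = 0.299) in sh8. The 5 genes of eIF2B, the exchange factor that reloads eIF2 with GTP, gave 0 calls in every comparison by limma and by limma-voom, and 0, 0, 0 and 1 had an unadjusted p under 0.05 in the pooled, sh4, sh8 and sh4 against sh8 comparisons. Their log2 fold changes ran from -0.22 to 0.15 in sh4 and from -0.23 to 0.10 in sh8. With only 5 genes, 0 calls do not set eIF2B apart from all genes, of which 22.5% were called in sh4. EIF2A and EIF2D, alternative carriers of initiator tRNA, passed no test.

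Of the 8 factors of start site choice and subunit joining, 1 was called, in sh4 (12.5% against 22.5% of all genes), where 4 were without the first control and 0 without the first sh4 library. EIF1AX, which codes for eIF1A and steadies the scanning ribosome, had 2255, 2875 and 2452 in the control, 1537 and 1784 under sh4 and 2578 and 2266 under sh8. Both sh4 libraries lay below all controls, while the sh8 libraries were inside the control range. The log2 fold change was -0.60 (SE 0.14, adjusted p = 0.0126) in sh4 and -0.06 (SE 0.14, adjusted p = 0.869) in sh8, and the difference between hairpins was -0.55 (SE 0.15, adjusted p = 0.0604). EIF1, which guards start codon choice, had 3461, 5187 and 5053 in the control, 3489 and 4235 under sh4 and 3601 and 4104 under sh8, and its paralog EIF1B had 450.0, 527 and 579 in the control, 523 and 501 under sh4 and 518 and 609.8 under sh8. Neither passed a test. EIF5, the GTPase activator of eIF2, EIF5B, which joins the subunits, and EIF6, which keeps the large subunit free, had sh4 log2 fold changes of -0.33, -0.35 and -0.26 and sh8 values of -0.44, -0.06 and -0.33, none called. EIF1AD and the Y-linked EIF1AY were placed in this group by name and were not called either.

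The 14 genes of eIF3, the large scaffold on the small subunit, gave 3 calls in sh4, all lower (21.4%, where 22.5% of all genes were called and 11.9% were called lower), and 0 in the other comparisons, by limma and by limma-voom, where 2, 0 and 3 had an unadjusted p under 0.05 in the pooled, sh8 and sh4 against sh8 comparisons. Their sh4 calls numbered 6 without the first control, 1 without the second control, the third or the second sh4 library, and 0 without the first sh4 library. Their median log2 fold change was -0.23 in sh4 and -0.12 in sh8, and scaling moved it to -0.14 and -0.04 with quantile normalization and to -0.13 and -0.10 with equal totals. EIF3J, the loosely attached subunit that acts at the decoding site and in recycling, had 1851, 2669.9 and 2523 in the control, 1289 and 1498 under sh4 and 2139 and 1888 under sh8, with sh4 below every control and a log2 fold change of -0.74 (SE 0.17, adjusted p = 0.0113) in sh4 and -0.21 (SE 0.17, adjusted p = 0.550) in sh8. EIF3C, a core subunit gene, had 9599, 12188 and 11274 in the control, 7402 and 8357 under sh4 and 9881 and 10165 under sh8, a log2 fold change of -0.48 (SE 0.13, adjusted p = 0.0257) in sh4. EIF3E, which bridges to eIF4G, had 7473, 8043 and 7522 in the control, 5605 and 6060.3 under sh4 and 6895 and 7164 under sh8, with -0.40 (SE 0.11, adjusted p = 0.0247) in sh4. For EIF3E the 3 groups were ordered without overlap. The near-identical copy EIF3CL was at 0, 16.8 and 39.1 in the control, 55.3 and 10.5 under sh4 and 93.6 and 41.0 under sh8, at most 0.938% of the sum with EIF3C, and is uncertain because reads may be split between the copies. The other eIF3 genes ranged in sh4 from -0.40 (EIF3L) to 0.01 (EIF3B), with none called.

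For eIF5A, which carries the modified lysine hypusine and helps slow peptide bonds form, the ubiquitous gene EIF5A and the paralog EIF5A2, which is amplified in several cancers, both had negative fold changes with each hairpin. EIF5A2 (chromosome 3, 170888418 to 170908644) had normalized counts of 492, 524 and 434 in the control, 314 and 360.5 under sh4 and 312 and 334 under sh8, with every knockdown library below every control. Against the control this was a log2 fold change of -0.52 (SE 0.15, adjusted p = 0.0354) in sh4, -0.58 (SE 0.15, adjusted p = 0.0775) in sh8 and -0.55 (SE 0.14, adjusted p = 0.0498) pooled. The sh4 call was lost in 8 of 15 alternatives, among them leaving out any library except the first control. The pooled call was at the threshold and was lost in 14 of 16 alternatives, among them every one that left out a library, where its adjusted p ran from 0.0636 to 0.222. EIF5A had 5131, 8169.9 and 7006 in the control, 3874 and 5079 under sh4 and 5208 and 5004 under sh8, its first control lying within the knockdown values, and log2 fold changes of -0.58 (SE 0.19, adjusted p = 0.0522) in sh4 and -0.38 (SE 0.19, adjusted p = 0.323) in sh8. The ratio of EIF5A to EIF5A2 was 10.4, 15.6 and 16.1 in the control, 12.3 and 14.1 under sh4 and 16.7 and 15 under sh8 (two-sided exact permutation p = 0.800), so that no shift between the forms was detectable, the spread of the control log2 ratio being 0.35 (SD, n = 3). EIF5AL1 is a near copy of EIF5A with at most 0.115% of the sum of both.

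Of the 6 tested genes that were grouped under elongation by name, 4 were called in sh4, all lower (66.7% against 11.9% of all genes), with a median log2 fold change of -0.55 in sh4 and -0.14 in sh8. Without EEF1E1, which belongs to another complex, 3 of 5 were called, with a median of -0.52 in sh4 (-0.25 with quantile normalization) and -0.07 in sh8 (-0.15 with quantile normalization). The group of 6 gave 5 calls without the first control, 0 without the first sh4 library or without the variance trend, and 1 call each without the second sh4 library, the second control or the third. EEF1B2, the eEF1B subunit that exchanges GDP for GTP on eEF1A, had 2302, 3327 and 3024 in the control, 1404 and 1898 under sh4 and 2345 and 2619 under sh8. Both sh4 libraries lay below all controls and the sh8 libraries inside their range. The change on the log2 scale was -0.80 (SE 0.18, adjusted p = 0.0109) in sh4 and -0.20 (SE 0.18, adjusted p = 0.591) in sh8. EEF1D, the second exchange subunit, had 1148, 1640.3 and 1341 in the control, 909 and 920.2 under sh4 and 1210.0 and 1150.3 under sh8, with -0.57 (SE 0.15, adjusted p = 0.0237) in sh4. EEF1G, the structural subunit of the same complex, had 9641, 13084 and 12732 in the control, 8423 and 9868 under sh4 and 9608 and 12889 under sh8 and passed no test.

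EEF2, the translocase, had 34387, 43383 and 41496 in the control, 27744 and 27374 under sh4 and 34051 and 42194 under sh8. The sh4 libraries were below every control, while sh8 overlapped the control. Its log2 fold change was -0.52 (SE 0.15, adjusted p = 0.0327) in sh4, and lost the call with quantile normalization (adjusted p = 0.149), and -0.06 (SE 0.15, adjusted p = 0.869) in sh8. EEF1A1, the most abundant of all these mRNAs, had 135579, 178287 and 175608 in the control, 117661 and 138749 under sh4 and 145719 and 182039 under sh8. The groups overlapped and no comparison passed, with -0.34 (SE 0.19, adjusted p = 0.226) in sh4 and 0.01 (SE 0.19, adjusted p = 0.987) in sh8. EEF1A2 was at 3.10, 4.19 and 6.09 in the control, 11.3 and 10.4 under sh4 and 5.27 and 7.28 under sh8, under the minimum mean and so not tested. The ratio of EEF1A1 to EEF1A2 was 10418 in the lowest library.

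EEF1E1 (chromosome 6, 8073360 to 8102559), also called AIMP3, shares its name with the elongation factors but is a scaffold of the multi-tRNA synthetase complex. Its normalized counts were 799, 1096 and 996 in the control, 560.2 and 615 under sh4 and 728 and 558 under sh8. Every knockdown library was below every control. The log2 fold change was -0.70 (SE 0.17, adjusted p = 0.0169) in sh4, -0.58 (SE 0.17, adjusted p = 0.104) in sh8 and -0.64 (SE 0.15, adjusted p = 0.0443) pooled. Without the first sh4 library the pooled adjusted p was 0.121, and it was also over 0.05 without the second sh4 library (0.0810), the second sh8 library (0.0752) and the second or the third control (0.207 and 0.164).

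The 9 genes of this set that general knowledge counts as TOP mRNAs (EEF1A1, EEF1B2, EEF1D, EEF1G, EEF2, EIF3E, EIF3F, EIF3H and EIF4B) gave 4 lower calls in sh4 (44.4% against 11.9% of all genes), and the other 51 tested gave 13 lower calls (25.5%) and 1 higher. The 4 calls of the TOP genes were 0 without the first sh4 library, 1 without the second sh4 library, the second control or the third, 6 without the first control and 2 with quantile normalization. Their median log2 fold change in sh4 was -0.36, where it was -0.29 for the other 51, and with quantile normalization the order turned, at -0.15 against -0.19. In sh8 they gave 0 calls by limma, also 0 at an unadjusted p under 0.05 and 0 by limma-voom, with a median of -0.07 against -0.16. A TOP-like start, here a C within 5 bases of the annotated start that opens a run of at least 5 letters C or T, was in 34.8% of the windows of the set and in 21.1% of all windows. Of the 6 TOP genes with a window 5 had one. The start regions of 4 of them are shown with that of EIF2S3, the deepest fall in sh4, from 5 bases before to 20 after the start, with the pyrimidine run in capitals.
EEF1A1 (chr6:73521013-73521037, minus strand): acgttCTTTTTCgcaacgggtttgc
EEF2 (chr19:3985444-3985468, minus strand): gcgttCTCTTCCgccgtcgtcgccg
EIF4B (chr12:53006451-53006475, plus strand): cgggtCTTTTgcgttctctttccct
EIF3F (chr11:7987332-7987356, plus strand): gCCTCCTTCTTTCTCgacaagatgg
EIF2S3 (chrX:24054951-24054975, plus strand): CCTTCCTCTTTTggcaacatggcgg
The run of EEF1A1, EEF2 and EIF4B begins at the first base of the transcript, and that of EIF3F begins 4 bases before it. For EIF2S3 the run is marked from 5 bases before the first base, where the search began, and may extend further upstream. EEF2 was called lower in sh4, while EEF1A1, EIF4B and EIF3F, with log2 fold changes of -0.34, -0.31 and -0.12, were not.

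Of the 6 enzymes that modify the elongation factors, 2 were called in sh4, both lower (33.3% against 11.9% of all genes), while 0 were without the second control or the first sh4 library and 1, EEF2KMT, without the second sh4 library. EEF2K, the kinase that stops eEF2 by phosphorylation, had 1311, 1476 and 1385 in the control, 1059 and 1016 under sh4 and 1139 and 1235 under sh8, with all knockdown libraries below all controls, and log2 fold changes of -0.42 (SE 0.12, adjusted p = 0.0285) in sh4 and -0.23 (SE 0.12, adjusted p = 0.340) in sh8. EEF2KMT, which methylates eEF2, had 239, 286 and 287 in the control, 107 and 176 under sh4 and 207 and 161 under sh8. Again no knockdown library reached a control, and the log2 fold change was -0.97 (SE 0.24, adjusted p = 0.0165) in sh4 and -0.56 (SE 0.24, adjusted p = 0.242) in sh8. The 4 methyltransferases of eEF1A (EEF1AKMT1 to EEF1AKMT4) had sh4 values from -0.52 to 0.02 and none was called. The non-coding EIF3J-DT and EIF5-DT had log2 fold changes of 0.03 in sh4 and passed no test.

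None of the 8 paralog pairs passed 0.05 after adjustment, the lowest adjusted p being 0.114. The exact permutation p cannot be under 0.0286 with 35 splits, so a pair could pass only if most of the 8 reached that value. The lack of a pass therefore says little about any 1 pair. The log2 ratio of EIF4E to EIF4E2 differed between knockdown and control by -0.38 (two-sided exact permutation p = 0.171), that of EIF1 to EIF1B by -0.28 (p = 0.0857, exact), that of EEF1A1 to EEF1A2 by -0.96 (p = 0.0857, exact), and that of EIF4E to EIF4E3 by -0.40 (p = 0.571, exact). After adjustment over the 8 pairs these were 0.274, 0.171, 0.171 and 0.762. Ratios with EEF1A2 or EIF4E3 rest on few reads. Processed copies took little of the signal. The 20 copies of EEF1A1 in the table made up 0.239 to 0.325% of their sum with EEF1A1, the copies of EIF4A1 0.0829 to 0.167% and those of EIF4B 0.104 to 0.236%.

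Beside the factors themselves, 38 regulators and partners of translation were examined, of which 37 were in the table and 36 were tested. In sh4 11 passed, 4 higher and 7 lower, which is 30.6% against 22.5% of all genes, and 16 passed without the first control, 4 without the second, 5 without the third, 2 without the first sh4 library and 5 without the second. The pooled comparison called EIF4EBP1 and PDCD4 (5.6% against 4.61%), sh8 called PDCD4 (2.8% against 2.92%, and 1.38% for higher calls), and sh4 against sh8 called PPP1R15A (2.8% against 7.0%, and 3.67% for higher calls). The genes below are given because they were called in some comparison, except EIF2AK2, DHPS and DOHH, which were not called.

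EIF4EBP1, whose protein holds eIF4E away from eIF4G, had normalized counts of 1029, 1420.3 and 1323 in the control, 605 and 594 under sh4 and 685 and 867 under sh8. Every knockdown library was below every control. Against the control this was a log2 fold change of -1.05 (SE 0.17, adjusted p = 0.00213) in sh4, -0.69 (SE 0.17, adjusted p = 0.0581) in sh8 and -0.87 (SE 0.17, adjusted p = 0.0255) pooled. EIF4EBP2, the second such inhibitor, had 3623, 4141 and 4181 in the control, 4949 and 5692 under sh4 and 5246 and 5607 under sh8, with all knockdown libraries above all controls and log2 fold changes of 0.42 (SE 0.12, adjusted p = 0.0323) in sh4, 0.45 (SE 0.12, adjusted p = 0.0806) in sh8 and 0.43 (SE 0.11, adjusted p = 0.0571) pooled. PDCD4, which blocks eIF4A, had 972, 752 and 849.9 in the control, 1271 and 1222 under sh4 and 1431 and 1493 under sh8. It was higher in every knockdown library, by 0.55 (SE 0.13, adjusted p = 0.0173) in sh4, 0.78 (SE 0.13, adjusted p = 0.0165) in sh8 and 0.66 (SE 0.13, adjusted p = 0.0279) pooled.

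EIF2AK3, the gene of the endoplasmic reticulum stress kinase PERK that phosphorylates eIF2 alpha, had 556, 513 and 642 in the control, 981 and 1290.4 under sh4 and 691 and 811 under sh8. Both hairpins lay above the control, sh4 highest. The change on the log2 scale was 0.99 (SE 0.16, adjusted p = 0.00275) in sh4 and 0.40 (SE 0.16, adjusted p = 0.235) in sh8. PPP1R15A, the stress-induced phosphatase subunit that reverses that phosphorylation, had 426, 467 and 385 in the control, 737 and 718 under sh4 and 521 and 422 under sh8, with 0.78 (SE 0.15, adjusted p = 0.00591) in sh4 and a difference between hairpins of 0.63 (SE 0.17, adjusted p = 0.0497). EIF2AK2, the gene of the kinase PKR, which the study examined as a partner of GRASLND, had 3296, 3145 and 3379 in the control, 3152 and 2785 under sh4 and 2648 and 2878 under sh8. It was named outside the rule, and passed no test (log2 fold change -0.14 (SE 0.11, adjusted p = 0.397) in sh4 and -0.25 (SE 0.11, adjusted p = 0.281) in sh8). The study reported less PKR protein after GRASLND knockdown, a level that these RNA values do not measure.

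**Figure D5:**
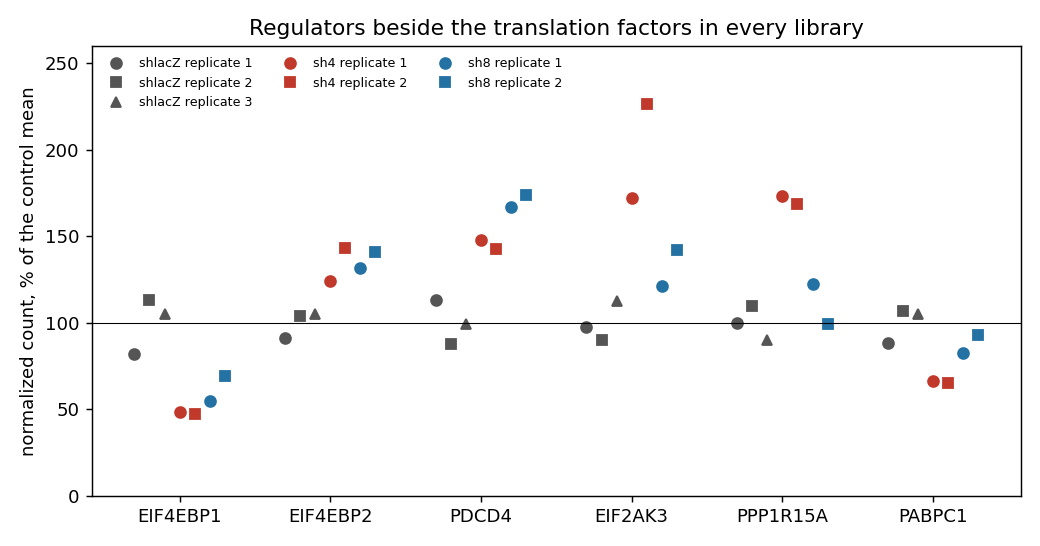
Normalized count of 6 regulators in each library as percent of the mean of the shlacZ libraries. EIF4EBP1 is below and EIF4EBP2, PDCD4 and EIF2AK3 are above the controls in all 4 knockdown libraries, while PPP1R15A and PABPC1 depart from the controls mainly in sh4.

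The remaining calls among the partners were lower in sh4. PABPC1, the main poly(A) binding protein and itself a TOP mRNA, had 29632, 35985 and 35402 in the control, 22339.7 and 22007 under sh4 and 27733 and 31228 under sh8, a log2 fold change of -0.60 (SE 0.13, adjusted p = 0.0111) in sh4 and -0.19 (SE 0.13, adjusted p = 0.494) in sh8. PABPC4 had -0.54 in sh4, the release factor gene ETF1 -0.60, and the mitochondrial factors MTIF2 and TUFM -0.53 and -0.57 (adjusted p = 0.0349, 0.0245, 0.0157 and 0.0369 in limma). In sh8 the same genes had -0.54, -0.34, -0.41 and -0.43 in that order, none called (adjusted p = 0.103, 0.300, 0.124 and 0.213 in limma). LARP1, which binds TOP starts, was at the threshold with -0.42 (SE 0.13, adjusted p = 0.0495). The hypusine enzyme genes DHPS and DOHH passed in none of the 4 comparisons in limma. Their log2 fold changes were 0.25 and -0.82 in sh4 and -0.17 and -0.98 in sh8. DOHH had 82.6, 163 and 143 in the control, 68.9 and 71.6 under sh4 and 54.0 and 72.8 under sh8. Every knockdown library was thus below every control for DOHH. The mean of both hairpins in the fit with 3 groups passed for DOHH, at -0.90 (SE 0.26, adjusted p = 0.0413 in limma).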

How the data were processed

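RNA-seq of 7 libraries of 501Mel cells was used. According to the methods of the study and the processing notes of the submitters, ribosomal RNA was depleted, stranded libraries were trimmed with Cutadapt, aligned to hg38 with STAR, quantified with Salmon and passed to DESeq2. Neither versions nor the annotation release are given in the sources used here. The authors deposited normalized counts, each gene's count divided by 1 size factor per library. These scale away a change shared by most transcripts. Of the values, 100% were whole multiples of 1 read within 0.001 reads, which gave the depth.

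The deposited values were tested with limma 3.58.1 (R 4.3.3) with the variance trend on log2(normalized count + 1), a scale that understates changes of low genes, for the 15420 of 21305 genes with a mean of at least 10. Benjamini-Hochberg adjustment covered all of them. Pooled knockdown against control was a fit with 2 levels, and the other comparisons came from a fit with 3 groups. The procedure was tested on simulated data. Coordinates and canonical transcript lengths came from GENCODE release 44, promoter windows from RefSeq.

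Values per library are given for at most 15 called genes by smallest adjusted p, the members of the 8 paralog pairs, the 5 highest genes per kb, at most 10 called partners and the 4E-BPs. Of the 63 genes 60 were tested, and 26 were named by this rule. The genes and lists were chosen with earlier results of these data known. Alternatives covered the pseudocount, the minimum mean, 2 scalings, a fit without the trend, a block by replicate number, limma-voom and leaving out each library. The planned identity of paralog proteins was not analysed here.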

Additional observations from a re-analysis of the deposited data

Results flagged for a closer look

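EIF2S3, the gene of the gamma subunit of eIF2, differed between the hairpins in the direct test, with sh4 lower than sh8 by a log2 difference of -0.60 (limma, adjusted p = 0.0265). The sh4 libraries were at 4263 and 4630 normalized counts, those of sh8 at 6311 and 7155, and the controls at 7998, 9468 and 9106. GRASLND was at 175 and 131 under sh4 and at 227 and 163 under sh8, so its ranges in the hairpins overlapped. The part of the GRASLND level in the difference was not tested.

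For EIF5A 1 of the 4 knockdown libraries lay apart from the rest. The first sh4 library, at 3874 normalized counts, was below the second at 5079 and both libraries of sh8 (5208 and 5004), and the gap made up 0.865 of the range on the log2 scale, above the 95% critical value of Dixon's test for 4 samples. Of 34 values examined this was the only one past that value, and chance alone puts about 1 in 20 groups past it. Dixon's test takes the 4 libraries as a single group, while they came from both hairpins, and a difference between the hairpins was not separated here.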

How the results depend on the processing

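The main counts of called translation factors were 4 in the pooled comparison, 18 in sh4, 1 in sh8 and 1 in sh4 against sh8. Without the variance trend they were 0, 4, 0 and 1, the last being EIF4E3. The mean of both hairpins in the fit with 3 groups called 11. In sh4 against sh8, quantile normalization gave 3 calls (1 higher, 2 lower), and equal totals and limma-voom gave 2 each (1 higher, 1 lower). Leaving out 1 library gave 0 to 6 calls in the pooled comparison, 2 to 30 in sh4, 0 to 9 in sh8 and 0 to 5 in sh4 against sh8. The cause of these shifts was not tested, although fewer samples were fitted in the last.

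GRASLND kept its direction. Its adjusted p was 0.0805 without the variance trend, at the same log2 fold change of -0.85. With a library left out the log2 fold change was -0.99 to -0.73, and the call was lost for each library except the first sh8 library. Of the 23 calls of named genes, 2 were kept in every alternative, EIF2S3 and EIF4G3 in sh4.

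With the replicate number as a block, 0 genes were called in the pooled comparison, 18 in sh4 (16 of them shared with the main ones), 2 in sh8 and 3 in sh4 against sh8, and GRASLND had a log2 fold change of -0.90 (adjusted p = 0.150). The labels share only a number. Deviations from the group means of same-numbered libraries correlated at 0.337 and 0.213 for shlacZ with sh4, 0.117 and -0.0781 for shlacZ with sh8 and 0.0337 for sh4 with sh8, so no pairing was assumed.

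The pooled log2 fold change turned sign for a pair of genes that were not called. EIF1B (0.06) was at -0.042 without the first shlacZ library and -0.0053 without the second sh8 library, in a range of -0.042 to 0.14 with 1 library left out. EIF4E3 (-0.11), at few reads, was at 0.011 with a pseudocount of 10, at 0.057 with the replicate block, and at -0.44 to 0.23 with 1 library left out, being above 0 without the third shlacZ library (0.057) and without the first (0.23) or the second (0.18) sh8 library.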
